A study of Mus musculus with 6 samples.

Results

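Layer 4 neuron markers are genes whose transcripts are enriched in layer 4 of sensory cortex, and 10 of them were followed on every probe that carries their name: Rorb, Zmat4, Scnn1a, Kcnh5, Kcnab3, Thsd7a, Il1rapl2, Tmem215, Endou and Plcxd2. They had 14 of the 55681 probes on the array that were not controls. Thsd7a had 4 probes, Rorb had 2 and each of the others had 1. All 14 probes were well above background on all 6 arrays and none was saturated, so no member was lost to the filter on dim probes.

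RNA from S1, the primary somatosensory area of the cortex, which serves touch, was measured in C57BL/6 mice at postnatal day 7, with each sample on a single-colour array of its own. Of the samples, 3 were controls that the design text gives as Lhx2f/f, with floxed alleles of the LIM-homeodomain factor gene Lhx2 and no Cre, whereas their titles call them WT. The other group held 3 samples with the same floxed alleles and Nex-Cre, labelled Lhx2 cKO. Nex-Cre is a Cre recombinase expressed from the Neurod6 (Nex) locus in young excitatory neurons of the cortex, layer 4 neurons among them, and not in the thalamic neurons that innervate them. Separate animals are not named in the labels, so p-values cover no more than the spread between these samples.

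Layer 4 is the main target of thalamic axons in sensory cortex. In S1 of mice, its excitatory neurons gather during the first postnatal week into barrels, each matching a whisker. Rorb, a nuclear receptor, is the layer's best known transcription factor, and many of its other markers are ion channels and membrane proteins.

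The Lhx2 probe read 2.15-fold higher in the cKO-labelled arrays than in control (log2 difference 1.1, limma adjusted p = 0.073), against the direction of a loss of transcript. The Neurod6 probe did not give a lower signal there either (log2 difference 0.38, limma adjusted p = 0.53). The sources used here do not give which part of either gene the alleles remove, so every direction below rests on the labels and the samples are called the cKO-labelled arrays. A single slide carried all 6 arrays, in 4 rows, with both groups present in rows 1 and 2 only. All 3 control arrays lay in slide column 1, as did replicate 1 of the cKO-labelled arrays, whose replicates 2 and 3 lay in column 2. Within rows 1 and 2, group and column therefore cannot be told apart. Y-linked transcripts gave signal in 2 of the 3 control arrays (replicates 1 and 3) and in 0 of the 3 cKO-labelled arrays. Markers of excitatory cortical neurons (6 of 6, among them Slc17a7 and Camk2a) passed the filter on dim probes. So did 50030 of all 55681 probes, and passing therefore does not show which tissue was taken.

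The probes are 60-base oligonucleotides, and the sequence of each is what decides which part of a transcript was read. The first 30 bases of the probes on which the results turn, 5′ to 3′ in lower case with no base marked, were as follows, with positions on mm9.
Rorb, brighter probe, chr19:19006883-19006942, minus strand: tggtgggcgctcccatgtcaccagcacagc
Rorb, dimmer probe, chr19:19012149-19012208, minus strand: cctgagtggggctcttttgtttgttcgttt
Scnn1a, chr6:125294843-125294902, plus strand: tgggtagactgaactgtgctcagggatgag
Kcnh5, chr12:75998266-75998325, minus strand: gccaaagacaattattcaaaacatagatat
Kcnab3, chr11:69146197-69146256, plus strand: gaagacttaaatctagaactagagtcacac
Thsd7a, brightest probe, chr6:12267087-12267146, minus strand: aagtgcatgctgtgtcctgagagttttgtg
Thsd7a, clone probe, chr6:12415318-12415377, minus strand: cctgagcattgtctcaaagaacaaataaaa
The Rorb probes lie 5.21 kb apart and differ in base composition, with 53.3% G or C in the brighter and 35% in the dimmer one, the highest share among the 14 probes and the lowest, which 4 other probes also had. Of the 4 Thsd7a probes, 3 stand for the RefSeq transcript and lie within 1.45 kb of each other. The other was designed on a cDNA clone from fertilized eggs and lies 148 kb away. No annotation of exons or UTRs was used for these positions.

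Of the 10 members, 7 gave a lower mean signal in the cKO-labelled arrays and 3 a higher one, where 44% of all genes were lower by sign. The median log2 difference was -0.45 over the members and 0.020 over all 32697 genes tested. The lower ones were led by the channel genes Kcnh5 and Kcnab3, and the higher ones were Thsd7a, Il1rapl2 and, barely, Tmem215. By limma 0 members passed an adjusted p of 0.05, and the rule called 0.00612% of all genes, 2 in number, none of them lower. At an unadjusted p under 0.05, limma gave 4 members lower (Kcnab3, Scnn1a, Kcnh5 and Rorb) and 1 higher (Il1rapl2), where 4.35% of all genes were lower and 3.19% higher. The groups lay apart, with no overlapping values, for 4 members that were lower, against 6.22% of all genes, and for 2 that were higher, against 7.17%. Counted by probe, 5 of the 14 were lower without overlap, against 5.89% of all probes. Another 3 of the 14 were higher without overlap, and the share of all probes in that direction was not counted. These RNA levels come from whole tissue, in which fewer layer 4 neurons and less of a transcript per neuron cannot be told apart.

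**Figure D1:**
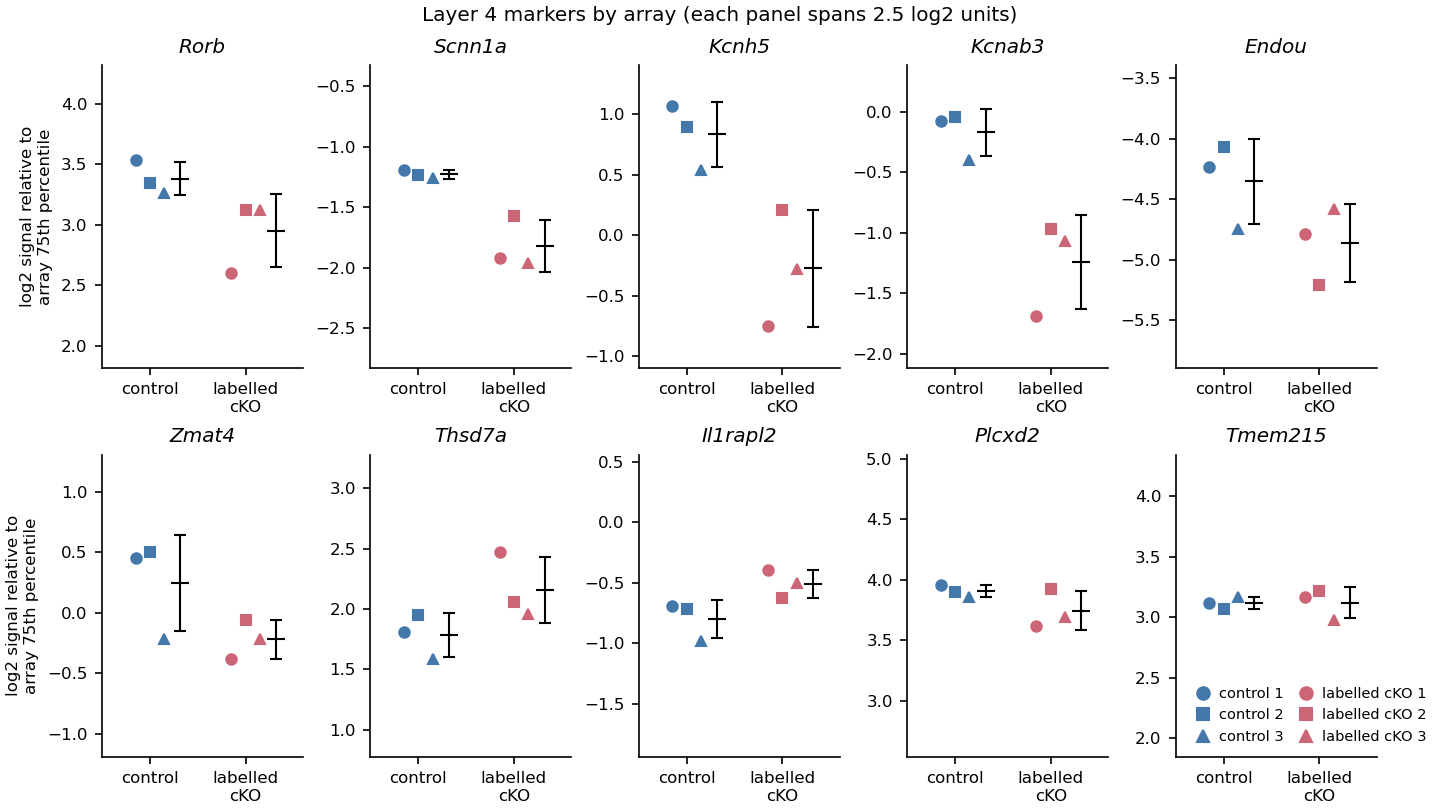
Log2 signal, with each array's 75th percentile set to 0, for the brightest probe of each member, with 1 point per array, mean and SD (n = 3 per group) to the right of the points, and vertical axes that all span the same range. Kcnab3, Kcnh5, Scnn1a and Rorb lie lower in all 3 cKO-labelled arrays than in any control array, Thsd7a and Il1rapl2 lie higher, and control replicate 3 is the lowest control for 9 of the 10 members.

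Rorb, the nuclear receptor, was read by its brighter probe at 3.54, 3.35 and 3.26 in control replicates 1 to 3 and at 2.61, 3.13 and 3.13 in the cKO-labelled ones, as log2 signal above or below the 75th percentile of its array, the scale of all levels below. The groups did not overlap, and replicate 1 of the cKO-labelled arrays stood well below the other 2. The mean was 3.38 ± 0.14 (SD, n = 3) in control and 2.95 ± 0.30 (SD, n = 3) in the cKO-labelled arrays, 1.35-fold lower (log2 difference -0.43, SE 0.17, limma adjusted p = 0.61 over all genes). Without replicate 1 of the cKO-labelled arrays the log2 difference was -0.26, so that array carried much of the size. Within slide rows 1 and 2 it was -0.41 and -0.22. The dimmer Rorb probe also gave 3 lower values, with 1.39, 1.31 and 1.44 in control and 0.95, 1.14 and 1.27 in the cKO-labelled arrays. Its log2 difference was -0.26 (SE 0.11, limma adjusted p = 0.76 over all probes). Both Rorb probes thus had the same direction, the same lowest array and no overlap.

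Zmat4, which encodes a zinc finger protein of the matrin type, read 0.45, 0.50 and -0.21 in control and -0.38, -0.061 and -0.22 in the cKO-labelled arrays. Control replicate 3 lay among the cKO-labelled arrays and the other 2 control arrays above all of them. The log2 difference of -0.47 (95% interval -0.96 to 0.028, limma adjusted p = 0.69) was not distinguished from 0. With only the arrays without Y-linked signal, which leaves control replicate 2 as the single control, it was -0.72. Within slide rows 1 and 2 it was -0.51 and -0.72.

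The 3 channel genes were lower in every cKO-labelled array than in any control array, and in the fit to all 6 arrays their differences were the 3 lowest. Scnn1a lost that place to Endou (-0.71) and Zmat4 (-0.70) without control replicate 3, where it was at -0.61. With a term for Y-linked signal both again lay below Scnn1a (-0.75 and -0.71 against -0.60). The same held on the arrays without that signal (-0.79 and -0.72 against -0.59). Endou alone lay below Scnn1a without replicate 3 of the cKO-labelled arrays (-0.65 against -0.52) and, barely, without their replicate 1 (-0.545 against -0.543). Within slide row 1 Endou lay below all 3 channel genes. Kcnh5, which encodes the voltage-gated potassium channel Eag2, read 1.07, 0.90 and 0.54 in control and -0.75, 0.21 and -0.28 in the cKO-labelled arrays. All 3 cKO-labelled values were below the lowest control value, and the gap between the groups was 0.33 at its narrowest. The means were 0.84 ± 0.27 and -0.27 ± 0.48 (SD, n = 3 each), 2.16-fold lower with a log2 difference of -1.11 (SE 0.26, limma adjusted p = 0.31). Kcnh5 stood at the 0.211th percentile of the differences of all genes, counted from the lowest.

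Kcnab3, an auxiliary beta subunit of voltage-gated potassium channels, read -0.073, -0.041 and -0.40 in control and -1.69, -0.97 and -1.07 in the cKO-labelled arrays. The groups were again apart, with control replicate 3 the lowest control and replicate 1 the lowest of the cKO-labelled ones, the same arrays as for Kcnh5. Its signal was 2.10-fold lower (log2 difference -1.07, SE 0.21, limma adjusted p = 0.24), which was the smallest adjusted p of any member. Scnn1a, the alpha subunit of the epithelial sodium channel and the source of a widely used layer 4 Cre line, read -1.19, -1.23 and -1.26 in control and -1.92, -1.58 and -1.96 in the cKO-labelled arrays. The control values of Scnn1a were the tightest of all members (SD 0.037, n = 3), while the cKO-labelled ones spread more (SD 0.21, n = 3). Scnn1a was 1.51-fold lower (log2 difference -0.59, SE 0.12, limma adjusted p = 0.27), and unlike Kcnh5 and Kcnab3 it had its lowest value in replicate 3 of the cKO-labelled arrays. Within slide row 1, where 1 array of each group can be compared, though in different columns, the log2 differences of Kcnh5, Kcnab3 and Scnn1a were -0.86, -0.89 and -0.39. Within row 2 they were -1.17, -1.02 and -0.73.

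The 3 members that encode membrane proteins other than channels did not share that direction. Thsd7a, a transmembrane protein with thrombospondin type I domains, read 1.81, 1.95 and 1.59 in control and 2.47, 2.06 and 1.96 in the cKO-labelled arrays on its brightest probe. The cKO-labelled arrays were all higher, though replicate 3 exceeded control replicate 2 by only 0.0022. The log2 difference was 0.38 (SE 0.17, limma adjusted p = 0.69), and it was 0.22 without replicate 1 of the cKO-labelled arrays, 0.21 on the arrays without Y-linked signal, and 0.24 and 0.0022 within slide rows 1 and 2. The second probe of Thsd7a gave a log2 difference of 0.48 and no overlap, while the third gave 0.13 and the clone probe 0.027, both with overlap (limma adjusted p from 0.70 to 0.999 over all probes). All 4 probes of Thsd7a had the same sign, and their sizes were not compared by a test.

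**Figure D2:**
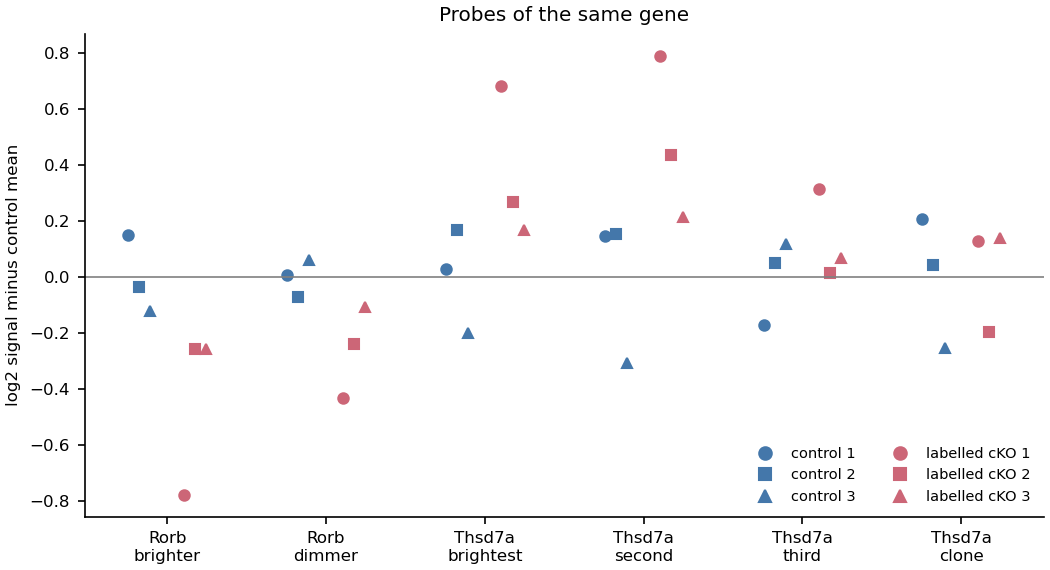
Log2 signal minus the probe's control mean for the 2 probes of Rorb and the 4 of Thsd7a, with 1 point per array. Both Rorb probes have all 3 cKO-labelled arrays below control, whereas among the Thsd7a probes the brightest and second have them above control and the third and the clone probe show overlap.

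Il1rapl2, an interleukin 1 receptor accessory protein-like receptor of the synaptic membrane, read -0.69, -0.72 and -0.98 in control and -0.40, -0.63 and -0.51 in the cKO-labelled arrays. The groups did not overlap, and the gap of 0.065 lay between control replicate 1 and replicate 2 of the cKO-labelled arrays. Its log2 difference was 0.29 (SE 0.12, limma adjusted p = 0.64), with 0.065 within slide row 1 and 0.22 within row 2. Il1rapl2 is the only member on the X chromosome, and Y-linked signal was not balanced between the groups. On the arrays without that signal, with control replicate 2 as the single control, its log2 difference was 0.21. Tmem215, a transmembrane protein, read between 3.07 and 3.17 in control and between 2.98 and 3.21 in the cKO-labelled arrays. The log2 difference of Tmem215 was 0.0033 with a 95% interval of -0.23 to 0.24 (limma adjusted p = 0.999), so a change as large as that of Kcnh5 lay outside its interval.

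Endou, a uridylate-specific endoribonuclease, was the dimmest of the brightest probes, with processed signals of 56.0, 63.4 and 33.2 intensity units in control and 35.9, 24.7 and 43.0 in the cKO-labelled arrays. Control replicate 3 lay between the cKO-labelled arrays, so the groups overlapped. The log2 difference was -0.51 (95% interval -1.05 to 0.031, limma adjusted p = 0.69), and it was -0.19 with normexp background correction, which adds an offset to every signal. Without replicate 2 of the cKO-labelled arrays it was -0.33, and within slide rows 1 and 2 it was -0.98 and -0.51. Plcxd2, with a phosphatidylinositol-specific phospholipase C domain, read 3.95, 3.90 and 3.86 in control and 3.62, 3.92 and 3.69 in the cKO-labelled arrays. A single cKO-labelled array, replicate 2, lay within the control range, and the log2 difference was -0.16 (95% interval -0.42 to 0.097, limma adjusted p = 0.90). Without replicate 1 or 2 of the cKO-labelled arrays it was -0.096 or -0.25.

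**Figure D3:**
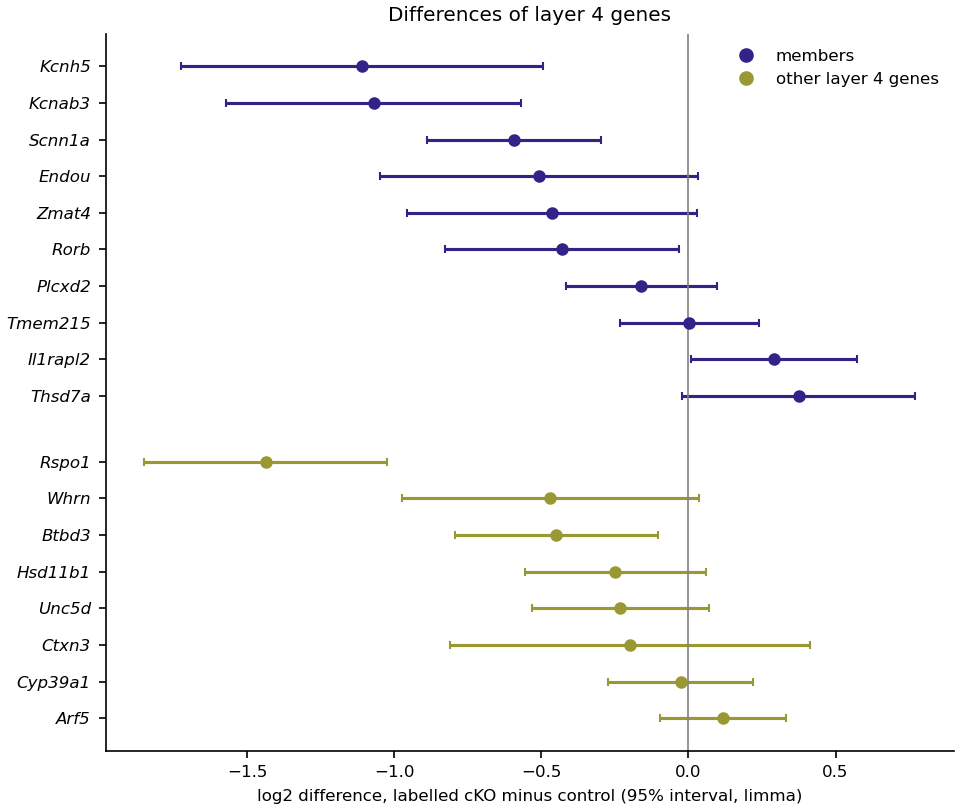
Log2 differences, cKO-labelled arrays minus control, with 95% intervals from limma (3 arrays per group), for the 10 members and for 8 other genes reported from layer 4. Kcnh5 and Kcnab3 lie beyond -1, as does Rspo1 among the others, while Tmem215 and Cyp39a1 lie near 0.

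Compared with each other by array, the members did not follow 1 common profile. Relative to each gene's control mean, the median of the 10 members was 0.10, 0.071 and -0.19 in control replicates 1, 2 and 3, and -0.53, -0.28 and -0.24 in replicates 1, 2 and 3 of the cKO-labelled arrays. Control replicate 3 was therefore nearer to replicates 2 and 3 of the cKO-labelled arrays than to the other 2 control arrays, while replicate 1 of the cKO-labelled arrays lay well below all of these. On each member's brightest probe, control replicate 3 was the lowest control for 9 of the 10 members, the 2 higher ones Thsd7a and Il1rapl2 included. Only Tmem215 had its lowest control value elsewhere. On the dimmer Rorb probe and the third Thsd7a probe, control replicate 3 was instead the highest control. Replicate 1 was the lowest of the cKO-labelled arrays for 5 members (Rorb, Kcnh5, Kcnab3, Zmat4 and Plcxd2) and the highest for Thsd7a and Il1rapl2. The median log2 difference was -0.55 without control replicate 3 and -0.32 without replicate 1 of the cKO-labelled arrays. Within slide rows 1 and 2 the median over the members was -0.40 and -0.37.

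Beside the members, 8 other genes reported from layer 4 were examined. They too were chosen with earlier results of these data known, so they are not an independent set. By sign 7 were lower and 1 higher, where 44% of all genes were lower, and the median log2 difference was -0.24. By limma 0 passed over all genes, and 2 had an unadjusted p under 0.05, both lower, where 4.35% of all genes were. Rspo1, a secreted activator of Wnt signalling that is expressed in layer 4, read -0.0055, -0.23 and -0.59 in control and -1.53, -1.71 and -1.90 in the cKO-labelled arrays. The gap between its groups was the widest of the 18 layer 4 genes, and its signal was 2.71-fold lower (log2 difference -1.44, SE 0.17, limma adjusted p = 0.076). Btbd3, which orients the dendrites of layer 4 neurons towards active axons, gave a log2 difference of -0.45 without overlap (limma adjusted p = 0.49). The other genes with the smallest p were Whrn at -0.47 and Hsd11b1 at -0.25, both with overlap. Control replicate 3 was again low, with a median of -0.23 over the 8 genes against 0.13 and 0.052 in control replicates 1 and 2.

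Relatives of the members were also mostly lower by sign, with a median nearer to 0 than that of the members. Of 22 paralogues, 21 passed the filter on dim probes (Scnn1g did not). By sign 15 were lower and 6 higher, where 44% of all genes were lower, and the median log2 difference was -0.11. By limma 0 passed over all genes. At an unadjusted p under 0.05 there were 1 lower and 2 higher, where 4.35% of all genes were lower and 3.19% higher. The lower one was Rora, the closest relative of Rorb, which read 0.023, 0.19 and -0.25 in control and -0.71, -0.47 and -0.42 in the cKO-labelled arrays (log2 difference -0.52, SE 0.14, limma adjusted p = 0.38). The higher ones were Thsd7b at 0.76 and Zmat1 at 0.41, both without overlap (limma adjusted p = 0.31 for each). Of the 21 paralogues, 14 had the sign of their member, among them Thsd7b and Rora, and 7 had the opposite one, among them Zmat1 against Zmat4 and Il1rapl1, at -0.12, against Il1rapl2. Kcnh1, the closest relative of Kcnh5, gave -0.49 with overlap.

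Markers of glia and interneurons also gave lower values in the cKO-labelled arrays for the most part. Median log2 differences were -0.48 (astrocytes), -0.64 (microglia), -0.32 (oligodendrocyte lineage) and -0.26 (interneurons), beside -0.45 over the members. At an unadjusted p under 0.05, limma gave 10 of 10 astrocyte and 8 of 10 microglial markers lower. It gave 6 of 12 in the oligodendrocyte lineage and 2 of 10 in interneurons, where 4.35% of all genes were lower. As for the members, 0 of these genes passed by limma over all genes tested (lowest adjusted p 0.095 in astrocytes, 0.28 in microglia, 0.074 in the oligodendrocyte lineage and 0.44 in interneurons). Over 10 astrocyte markers the summed signal, in units of the array's 75th percentile, lay between 104 and 125 in the cKO-labelled arrays and between 149 and 175 in control, with all 10 lower by sign, where 44% of all genes were. For 10 microglial markers these ranges were 58.6 to 61.8 and 71.7 to 74.5, and for 12 markers of the oligodendrocyte lineage 126 to 146 and 153 to 188. The 10 interneuron markers were all lower as well, with sums of 59.2 to 72.0 and 76.5 to 77.1. By sign 5 of 10 layer 2/3 markers were lower (median log2 difference 0.0080), as were 6 of 14 layer 5 markers (0.30) and 8 of 10 subplate markers (-0.22), and the layers were not compared by a test. These are values of the same comparison, and their part in the layer 4 values was not tested.

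The glial lists did not place control replicate 3 near the cKO-labelled arrays, with a median between 0.0051 and 0.015 for each of the 3 lists there. Markers of the striatum, which lies beneath the cortex, had a median of 0.51 in control replicate 3, 0.21 in replicate 1 of the cKO-labelled arrays and between -0.28 and -0.19 in the other 4 arrays. Among the 6 genes, Ppp1r1b, Rgs9 and Adora2a were highest in control replicate 3, Penk and Drd2 were highest in replicate 1 of the cKO-labelled arrays, and Gpr6 was lowest in control replicate 3. Ppp1r1b, the gene of DARPP-32, which was chosen after its values were seen, read 2.76 in control replicate 3 and 1.67 in replicate 1 of the cKO-labelled arrays, against 0.77 to 0.83 in the others. Penk, the gene of proenkephalin, read 0.90 and 1.15 on those arrays, and Gpr6, a receptor gene, read 0.18 and 0.38 against 0.28 to 0.41 in the others. Those 2 arrays were the lowest of their groups by the median of the members, and the part of striatal RNA in that was not tested. All 6 striatal markers passed the filter on dim probes, and the range of their summed signal was 7.57 to 17.1 in control and 8.0 to 11.8 in the cKO-labelled arrays. Markers of excitatory neurons had a median of -0.26 in control replicate 3 and between 0.021 and 0.15 in the other 5 arrays. A low control replicate 3 was also seen for layer 5 markers, with medians of 0.12, 0.059 and -0.17 in control replicates 1, 2 and 3. For layer 2/3 and layer 6 markers the median in control replicate 3 was -0.032 and 0.066.

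**Figure D4:**
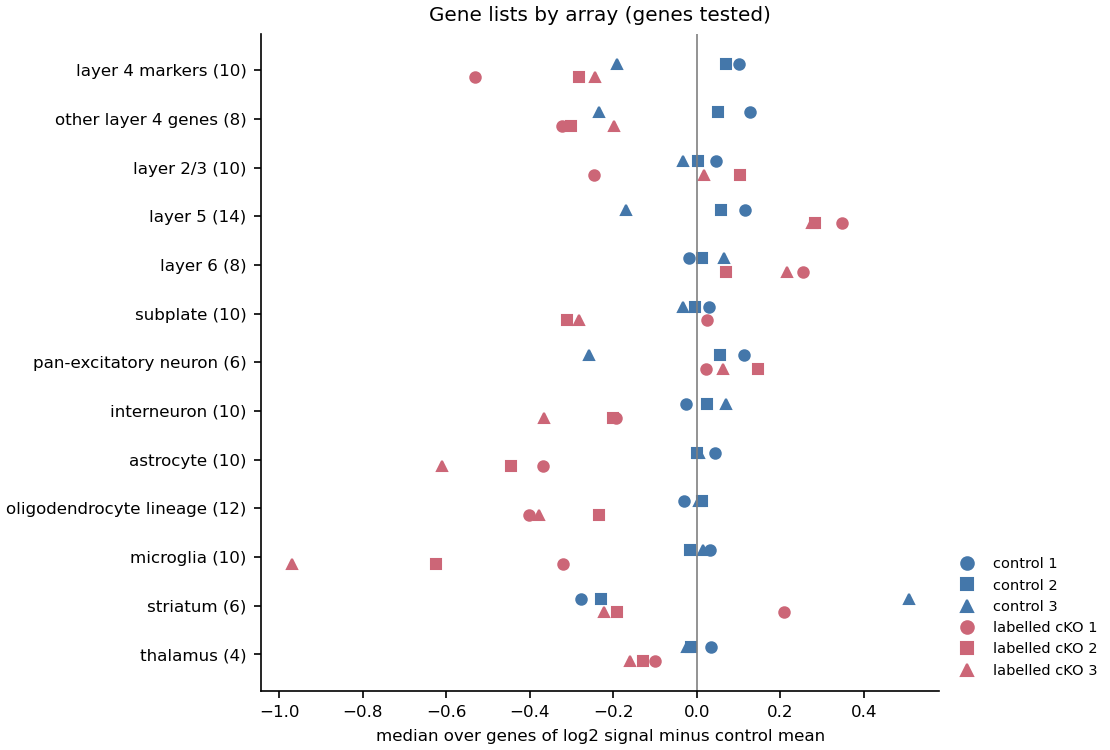
Median over the genes of a list of the log2 signal minus the gene's control mean, with 1 point per array and the number of genes tested in brackets. For the layer 4 markers control replicate 3, at -0.19, lies beside cKO-labelled replicates 2 and 3, while for astrocytes and microglia the control arrays lie together, and the median of the striatal markers is highest in control replicate 3, at 0.51.

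The size and sign of the differences were followed through 20 other ways of processing, fitting or leaving out 1 array, not counting the values within single slide rows. The sign was kept by 9 members in all of them, and Tmem215, whose difference was near 0, changed sign in 5. In none was a member called at an adjusted p of 0.05. Kcnh5 lay between -1.35 and -0.87 and Kcnab3 between -1.22 and -0.85. Scnn1a lay between -0.71 and -0.50, Rorb between -0.52 and -0.26 and Il1rapl2 between 0.20 and 0.35.

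**Figure D5:**
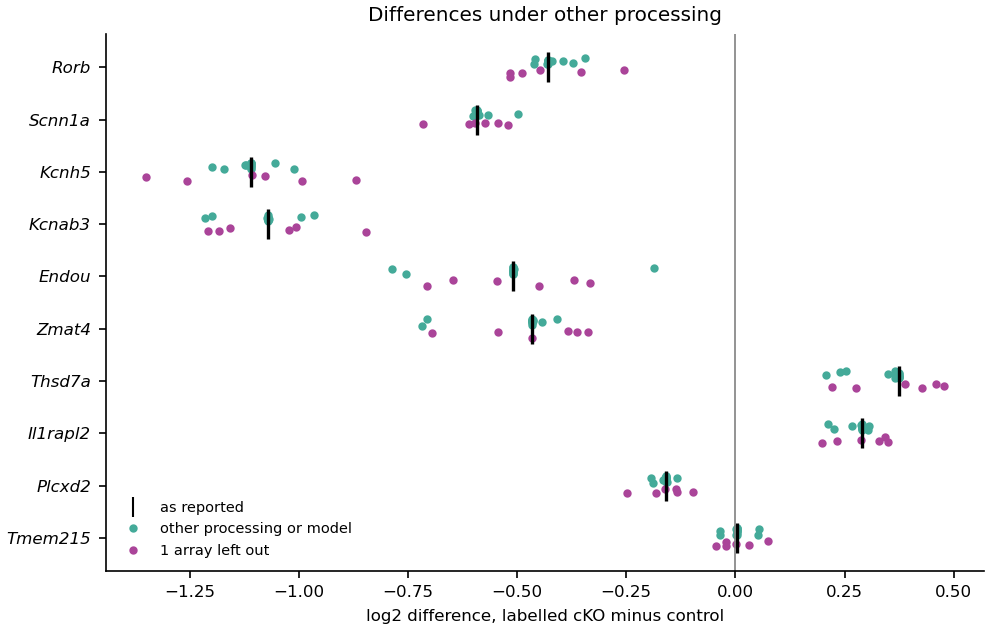
Log2 differences, cKO-labelled arrays minus control, of each member as reported (vertical mark), under other processing or models (upper points) and with 1 array left out (lower points). Kcnh5 and Kcnab3 stay below -0.84 throughout, and only the points of Tmem215 lie on both sides of 0.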

How the data were processed

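The scanner files hold intensities of 1-colour (Cy3) Agilent arrays, made, per the file headers, with Feature Extraction 10.5.1.1: a processed signal, detrended and background-subtracted, and raw mean and background signals. The authors' deposited series matrix holds log2 values centred per probe by steps not given in the sources used here. Of its values, 95% lay within 0.0084 of quantile-normalized processed signals centred on each probe's median (column medians -0.0064 to 0.0065).

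For the tests, each array's 75th percentile over non-control spots was subtracted from its log2 processed signals (the percentile was 892 to 1067 intensity units). Spots flagged as outliers, 112 to 198 on an array, were dropped and spots of a probe averaged. A probe was tested if well above background on at least 3 of 6 arrays, and each gene took its brightest probe. Groups were compared with limma 3.58.1 (R 4.3.3), two-sided, Benjamini-Hochberg adjusted over 32697 genes or, where stated, 50030 probes. The fit was tested on simulated data, with the outcome not reported here, and no result above rests on it. Symbols follow a RefSeq table of GRCm38.p6, used for names only. The number of arrays limits the precision.

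The members, the gene lists and the alternatives were chosen with earlier results of these data known. Named are all members, and up to 4 genes with the smallest p among the other layer 4 genes and the paralogues. Outside that rule, Il1rapl1 was named for its sign, Cyp39a1 for its small difference and Scnn1g for not passing the filter. Genes of other lists are named where a result turns on them, and Ppp1r1b was chosen after its values were seen. Beside the lists in the text, medians were 0.18 (layer 6), -0.22 (subplate), 0.026 (endothelium), -0.011 (hippocampus), -0.091 (thalamus), -0.28 (choroid plexus) and -0.35 (meninges). Same-numbered samples did not deviate together (r = -0.20, 0.083 and 0.17 across genes), so the numbers were not taken as pairs.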

Additional observations from a re-analysis of the deposited data

How the results depend on the processing

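Of the 10 members, 0 were called in any refit, with quantile normalization, median centring, normexp (offset 50), either filter on dim probes, outlier-flagged spots kept, averaged probes, intensity trend with robust variances, terms for slide row or Y-linked signal, the arrays without Y-linked signal, the authors' matrix, a threshold of 0.1 or every probe as its own row. The lowest adjusted p of a member over the limma refits was 0.070 (Kcnh5, slide row term). The median log2 difference of the members lay between -0.55 and -0.32 without 1 array and between -0.51 and -0.31 otherwise, within 1 SD between arrays (0.16) of the value reported. With the replicate block it stayed at -0.45 and 0 members were called, with a lowest adjusted p of 0.48. Samples did not all correlate best with their own number. Tmem215 lay between -0.044 and 0.076 without 1 array. It turned to -0.036 with quantile normalization and with the authors' matrix (-0.036), to -0.021 and -0.044 without replicates 1 and 2 of the cKO-labelled arrays, to -0.022 without control replicate 2 and to -0.091 within slide row 2. The count over all genes, 2 as reported, depended on the setting: 12 with quantile normalization or the authors' matrix, 24 with median centring, 77 with normexp, 106 with trend and robust variances, 11 with probes above background on all arrays, 3 with the percentile over averaged probes (chosen after seeing the data), 78 at a threshold of 0.1, 1 with the Y-linked term and on the arrays without that signal, 0 with no filter, the slide row term or the replicate block, and 0 to 4 without 1 array. The cause was not tested. For Endou, the dimmest member, signal over background limits the value.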
